A study of Mus musculus with 8 samples.

Results

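Transcripts of insulin-like growth factor 1 (Igf1), its receptor (Igf1r) and 6 IGF-binding proteins (Igfbp2 to Igfbp7) were followed through the formation of mouse fat. These 8 genes, of 16593 named genes on the array, were chosen by name, with all 11 of their probes. Adipose tissue of C57BL/6 mice carrying no stated allele or treatment was measured at 4 embryonic stages (e15.5, e16.5, e17.5, e18.5) and on 4 postnatal days (P0, P2, P5, P12). Each stage was 1 pool on 1 Illumina MouseRef-8 BeadChip. A pool held at least 3 embryos by one label and 4 by another. The treatment protocol calls the tissue white fat, and the depot and the sex of the animals are not given. Levels are the authors' normalized log2 intensities, in which 1 unit is a 2-fold difference. The lowest value was 6.66 and the median of each array 6.99, and probes near background read in about this span. Values are comparable between stages of 1 probe, not between probes.

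IGF1 is a secreted growth factor that acts through IGF1R, a tyrosine kinase receptor, and in fat it favours the differentiation of preadipocytes and is induced by growth hormone. The IGF-binding proteins IGFBP2 to IGFBP6 hold IGFs with high affinity outside the cell, prolong their life in tissue fluid and limit or direct their access to the receptor. IGFBP7 is a relative that binds IGFs weakly. All 8 transcripts come from several cell types, and in a bulk sample fewer cells of a type and less RNA per cell cannot be told apart.

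All 8 genes had a promoter window in RefSeq (GRCm38.p6), 9 windows in all because Igfbp2 has 2. The last 100 bases before the annotated start are shown for Igf1, whose level had the widest range, for Igfbp7, the member with a called slope, and for Igfbp5, which had the opposite curvature to Igf1. Capitals mark matches to the motifs named below.
Igf1 (chr10:87861011-87861110, + strand): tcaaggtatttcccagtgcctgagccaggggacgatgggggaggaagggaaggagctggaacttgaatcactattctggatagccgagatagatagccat
Igfbp5 (chr1:72874866-72874965, - strand): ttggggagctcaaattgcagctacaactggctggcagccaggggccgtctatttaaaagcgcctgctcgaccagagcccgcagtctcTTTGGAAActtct
Igfbp7 (chr5:77408046-77408145, - strand): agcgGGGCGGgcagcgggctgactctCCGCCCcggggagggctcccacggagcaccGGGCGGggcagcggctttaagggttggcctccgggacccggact
The 5 motifs were searched on both strands of the full 300-base windows, overlaps allowed. The Sp1 GC box GGGCGG was found in 3 of the 8 genes, 4 times in Igfbp7, and in 35.7% of all 32851 windows. The C/EBP pattern TTNNGNAA was found in 3 of the 8, Igfbp5 among them, and in 40.7% of all windows. The TATA pattern TATAAA was found in 2 of the 8, Igfbp4 and Igfbp6, and in 13.6%, and the E-box CACGTG in 1, Igfbp2, and in 7.15%. The Igfbp4 TATA match began at -28 from the annotated start on the gene's strand, and the Igfbp6 match at -148 on the opposite strand. The STAT5 pattern TTCNNNGAA was found in 0 of the 8 and in 8.3% of all windows. The Igf1 window held none of the 5 motifs. Igfbp2 and Igfbp5 are neighbours on chromosome 1, and Igfbp3 lies next to Igfbp1 on chromosome 11.

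The pools differed in their content of other tissues. The mean of 13 tested skeletal muscle markers was 13.02 at e15.5 and 11.77 at P0, and 7.58 to 9.16 on the other 6 arrays. The mean of 8 tested epidermal markers was 11.55 and 10.71 on the same 2 arrays and 7.17 to 9.30 on the others. Of 12 adipocyte markers 4 reached 7.5 at e15.5, and Lep, Plin1, Plin4, Cidec and Lipe were below it there, so that pool lacked most defining markers of the labelled tissue. From e16.5 on 8 to 10 of the 12 reached 7.5, and Fabp4 and Cd36 did so on no array. Several of the values below changed without the e15.5 array, and these are given beside the values from all 8.

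A probe was taken as measured where it reached 7.5 on at least 2 arrays. Of the 8 genes 6 passed, and Igf1r and Igfbp2 did not. Since no stage had a replicate, tests were made across stages with limma, with Benjamini-Hochberg adjustment over 7446 features. The trend test asks whether a level rose or fell steadily with stage order. The curvature test asks whether mid-series levels lay above or below a straight line, and its size is the height of the middle above the line between the ends. In these tests p-values rest on the scatter of single pools around a line.

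**Figure D1:**
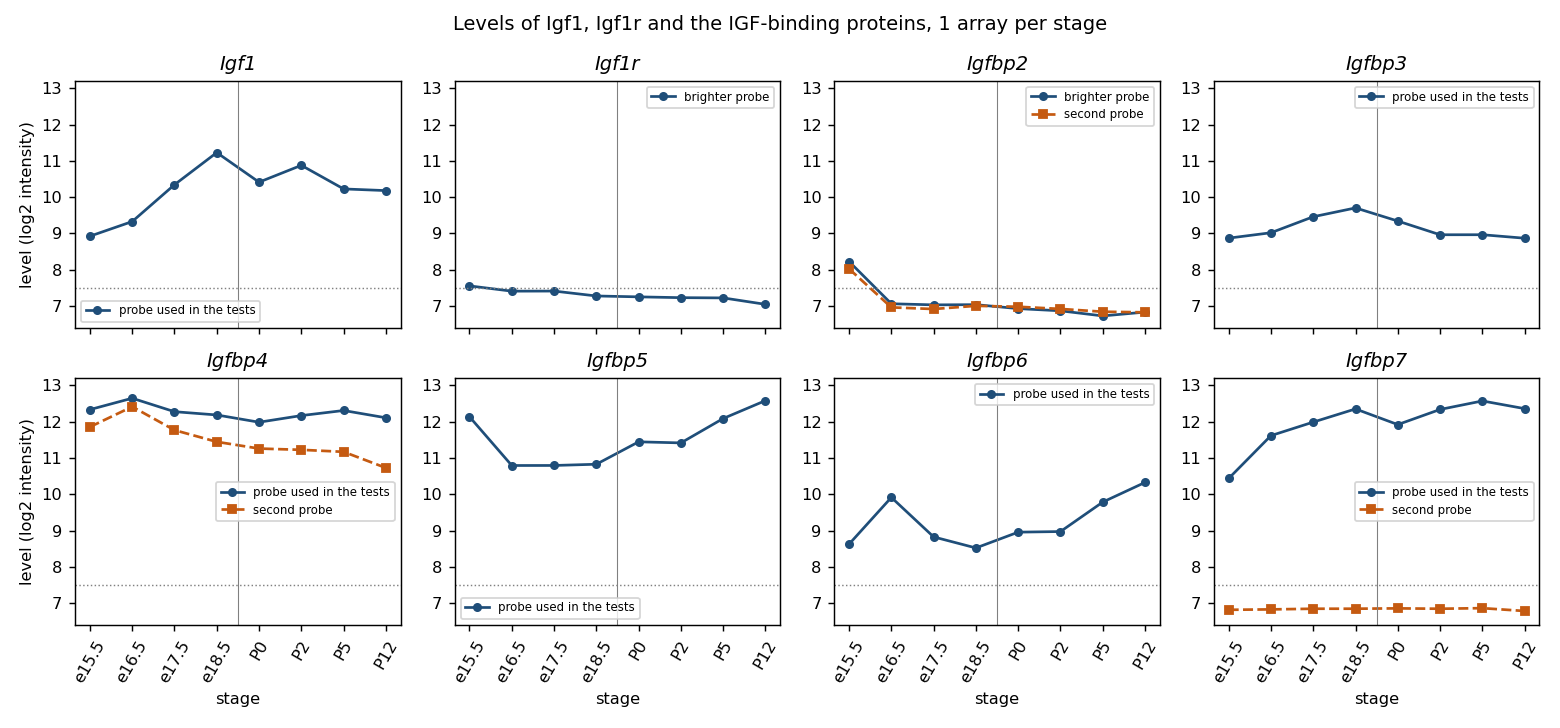
Level of each member gene (y, log2 intensity) at each stage (x, 1 array per stage), with a dotted line at 7.5 and a vertical line at birth. Igf1 and Igfbp3 were highest at e18.5, Igfbp5 was lowest from e16.5 to e18.5, and Igfbp6 was highest at P12. Both Igfbp4 probes were highest at e16.5, and from P0 to P5 the first rose while the second fell. The second Igfbp7 probe stayed near background.

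Igf1, the ligand, was highest in the single e18.5 pool at the end of gestation, although neither its slope nor its curvature passed a test. The 4 embryonic pools read 8.93, 9.33, 10.34 and 11.23 in stage order, and the 4 postnatal pools 10.41, 10.88, 10.23 and 10.18. The e18.5 pool was the highest and the e15.5 pool the lowest, a 4.94-fold range, and the postnatal values all lay within the embryonic range. The step from e16.5 to e17.5 was 2-fold (1.01 log2), which 2.82% of the 7446 features reached in either direction. The slope of Igf1 was 0.17 log2 per stage (SE 0.09, limma adjusted p = 0.169), and its middle stages lay 1.35 log2 above the line (SE 0.31, adjusted p = 0.0827). Without the e15.5 array the slope was 0.071 (adjusted p = 0.618), and without P12 it was 0.25 (adjusted p = 0.114). Leaving out e18.5 gave a slope of 0.18 (limma adjusted p = 0.0657) and a curvature of 1.07 (adjusted p = 0.163). The 9 tested adipocyte markers averaged 8.10 in the e15.5 pool, 11.69 in the e18.5 pool and 12.07 on P12. The mean of 10 macrophage markers, another source of Igf1, was 8.62, 9.17 and 9.51 on the same arrays. Their part in the pattern of Igf1 was not tested.

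The 3 genes whose profiles were most like that of Igf1 over the 8 stages were Pcx, the mitochondrial pyruvate carboxylase (Pearson r = 0.988), Nnmt, a nicotinamide methyltransferase (0.973), and Hcar2, a receptor for niacin and ketone bodies (0.971). They were taken from 2429 named, tested genes with a range of 1 log2 or more. All such likenesses rest on the same 8 pools.

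Igf1r, the receptor, gave a dim signal throughout. Its single probe read 7.56, 7.41, 7.41 and 7.28 from e15.5 to e18.5, and 7.25, 7.23, 7.23 and 7.05 from P0 to P12. It reached 7.5 on 1 array and was not tested, and all 4 postnatal values lay below all 4 embryonic ones. Of the tested features, a set that leaves out Igf1r, 18.9% likewise had no overlap between the 2 periods, in either direction. With no filter on dim probes its slope was -0.060 log2 per stage (SE 0.0078, limma adjusted p = 0.00487), where 2888 of 18312 features passed. Differences this close to background are compressed, so the size of the change in receptor RNA is not given by this slope.

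Igfbp2, a binding protein that is high in many embryonic tissues, was above 7.5 in the e15.5 pool alone. Its brighter probe read 8.23, 7.06, 7.03 and 7.04 in the 4 embryonic pools and 6.93, 6.87, 6.73 and 6.83 in the 4 postnatal ones. Counted against 7.5, the level at e15.5 was at least 1.66-fold that of any later stage. The second probe gave the same order of events, 8.03 at e15.5 and 6.83 to 7.01 afterwards. The part of muscle and skin content in the e15.5 level was not tested. With no filter the slope was -0.14 log2 per stage (SE 0.05, adjusted p = 0.0952).

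Igfbp3, the main IGF carrier of serum, followed the same course as Igf1 up to e18.5 with a smaller range. Before birth it was 8.87, 9.02, 9.46 and 9.70 in stage order, and from P0 on 9.34, 8.96, 8.97 and 8.87. The first and last stages were equal to within 0.01 log2, and the range was 1.78-fold. Its slope was -0.025 (SE 0.045, adjusted p = 0.675) and its curvature 0.61 (SE 0.19, adjusted p = 0.137). Most like it were Hmox1, heme oxygenase (r = 0.961), Pdk1, a pyruvate dehydrogenase kinase (0.940), and Oas1g, an interferon-induced enzyme (0.936).

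Igfbp4, an inhibitory binding protein of mesenchyme and fat, was measured by 2 probes that differed. The probe used in the tests read 12.33, 12.65, 12.28 and 12.19 in the embryonic pools, in stage order, and 11.99, 12.17, 12.31 and 12.11 in the postnatal ones. Its range, 1.58-fold, was the narrowest among the 6 tested members, and its slope was -0.045 (SE 0.027, adjusted p = 0.207). The second probe read 11.86, 12.41, 11.77 and 11.45 in the former and 11.26, 11.23, 11.17 and 10.73 in the latter. With every probe as its own feature this probe fell by 0.19 log2 per stage (SE 0.03, limma adjusted p = 0.00475), whereas the first had an adjusted p = 0.203. From e15.5 to P12 the first changed by -0.23 log2 and the second by -1.13. The sources used here do not say which transcripts each probe reads. The profiles most like that of the first probe were those of Fam220a (r = 0.975), Lum, the matrix proteoglycan lumican (0.935), and Alas2, the erythroid enzyme of heme synthesis (0.928).

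Igfbp5, a binding protein of mesenchyme and muscle, was lowest in late gestation. It stood at 12.14 at e15.5, at 10.79, 10.79 and 10.83 in the next 3 pools, at 11.45 and 11.42 on P0 and P2, and at 12.09 and 12.58 on P5 and P12. The e16.5 to e18.5 pools were within 0.04 log2 of each other, and P12 was 3.45-fold above e16.5. The middle stages lay below the line (curvature -1.31 log2, SE 0.28, adjusted p = 0.0764), and the slope was 0.14 (SE 0.09, adjusted p = 0.21). The slope depended on the first and last pools. Without e15.5 it was 0.30 (limma adjusted p = 0.00535), and without e15.5 and P0, a setting added after the data were seen, it was again 0.30 (adjusted p = 0.00815). Without P12 it was 0.063 (adjusted p = 0.655). With the muscle marker mean as a covariate the curvature was -1.17 (adjusted p = 0.0376), and without e15.5 it was -0.64 (adjusted p = 0.214). Array weights gave a slope of 0.22 (adjusted p = 0.0353). The muscle marker mean was 13.02 on the e15.5 array and 7.63 on the P12 array, the 2 arrays on which Igfbp5 was highest, and its part in the e15.5 level was not tested.

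The profiles most like that of Igfbp5 were those of Tmem79 (r = 0.981), Ctnnal1, a catenin-like protein (0.968), and Ank, a pyrophosphate transporter (0.964). Its neighbour Igfbp2 likewise had its highest embryonic level at e15.5, and unlike Igfbp5 stayed near background after birth.

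Igfbp6, which prefers IGF2 to IGF1 and is abundant in fibroblast-like progenitors of fat, had a peak at e16.5 and another at P12. Its embryonic levels were 8.63, 9.91, 8.83 and 8.52 in stage order, and its postnatal levels 8.96, 8.97, 9.79 and 10.33. The level went up by 1.29 log2 from e15.5 to e16.5 and then dropped by 1.09 to e17.5. The P12 pool was 3.50-fold above e18.5. The slope of 0.14 (SE 0.08) did not pass (adjusted p = 0.187), but without the e16.5 array it was 0.23 (adjusted p = 0.0292). Without P12 it was 0.062 (adjusted p = 0.634). The curvature was -0.84 (SE 0.43, adjusted p = 0.312), and -1.88 without e15.5 (adjusted p = 0.117).

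The profiles most like that of Igfbp6 were Rnase4 (r = 0.963), Pi16, a marker of interstitial fibroblast progenitors (0.917), and Medag, a gene linked to adipogenesis (0.912). At e15.5, e16.5, e18.5 and P12 the level of Pi16 was 9.89, 11.13, 10.27 and 11.76. Dpp4, a marker of the same progenitors, was 10.03, 10.49, 9.30 and 9.55 on these arrays. Of these 4 arrays Igfbp6 and Pi16 were highest at P12 and Dpp4 at e16.5. The mean of all 13 progenitor markers was 10.97 at e16.5 and 9.88 at P12. Pi16, Pdgfra and Thy1 were higher at P12 than at e16.5 and the rest lower, Dlk1 the most (14.56 at e16.5, 7.32 at P12).

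Igfbp7, the low-affinity relative made by vessel walls and stroma, was the member that passed the trend test. The embryonic pools read 10.44, 11.62, 11.99 and 12.35 and the postnatal pools 11.92, 12.34, 12.57 and 12.36. Most of its gain came before birth, since P12 was 3.80-fold above e15.5 and e18.5 already 3.77-fold. Igfbp7 rose by 0.22 log2 per stage (SE 0.06, limma adjusted p = 0.0189), and of all 7446 features 18.3% rose. The curvature was 0.77 (SE 0.26, adjusted p = 0.155), and 0.27 without e15.5 (adjusted p = 0.612). A second Igfbp7 probe stayed at 6.79 to 6.86 on all arrays and registered none of this.

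The call for Igfbp7 was lost without the e15.5 pool or with a marker mean in the fit. Without e15.5 the slope was 0.12 (adjusted p = 0.0536), and without e15.5 and P0, a setting added after the data were seen, it was 0.12 (adjusted p = 0.0506). With the muscle marker mean as a covariate it was 0.12 (adjusted p = 0.116), and with the epidermal mean 0.14 (adjusted p = 0.107). Its level followed the adipocyte marker mean with r = 0.952 over the 8 stages and the muscle mean with r = -0.858, so the 2 lists cannot be told apart as companions of its rise. The mean of 10 endothelial markers was 9.44 at e15.5 and 9.70 to 10.32 afterwards. The profiles most like that of Igfbp7 were Lpl, lipoprotein lipase (r = 0.978), Abhd11, a hydrolase (0.975), and Fcgrt, the neonatal Fc receptor (0.973).

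**Figure D2:**
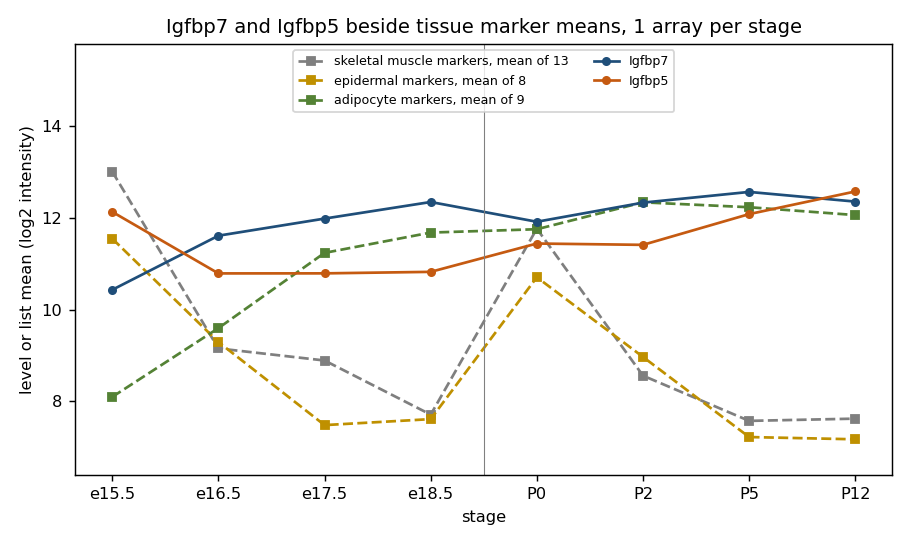
Igfbp7 and Igfbp5 levels (y, log2 intensity) by stage (x) beside the mean level of 9 adipocyte, 13 skeletal muscle and 8 epidermal markers, 1 array per stage. The e15.5 pool was low in Igfbp7 and in adipocyte markers and high in muscle and epidermal markers, and muscle and epidermal markers were high again at P0.

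Across the family, 1 of the 6 tested members passed the trend test and 5 did not, where 39.0% of all features passed in either direction. The median slope of the 6 was 0.14 log2 per stage and that of all features -0.0040. In the curvature test 0 of 6 passed with limma, where 0.698% of all features did. At an unadjusted p of 0.05 the curvature of 4 of the 6 passed (Igf1, Igfbp3, Igfbp5 and Igfbp7), where 20.6% of all features did. Igf1, Igfbp3 and Igfbp7 lay above the line in mid-series and Igfbp4, Igfbp5 and Igfbp6 below it. Over the 8 stages Igf1 and Igfbp7 had r = 0.806 (Spearman rho 0.405), Igf1 and Igfbp3 r = 0.607 (rho 0.595), and Igfbp3 and Igfbp5 r = -0.714 (rho -0.738), the lowest of the 15 pairs. Without the e15.5 pool the first was r = 0.605 and the second r = 0.529 over 7 stages. These correlations describe the same 8 pools.

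**Figure D3:**
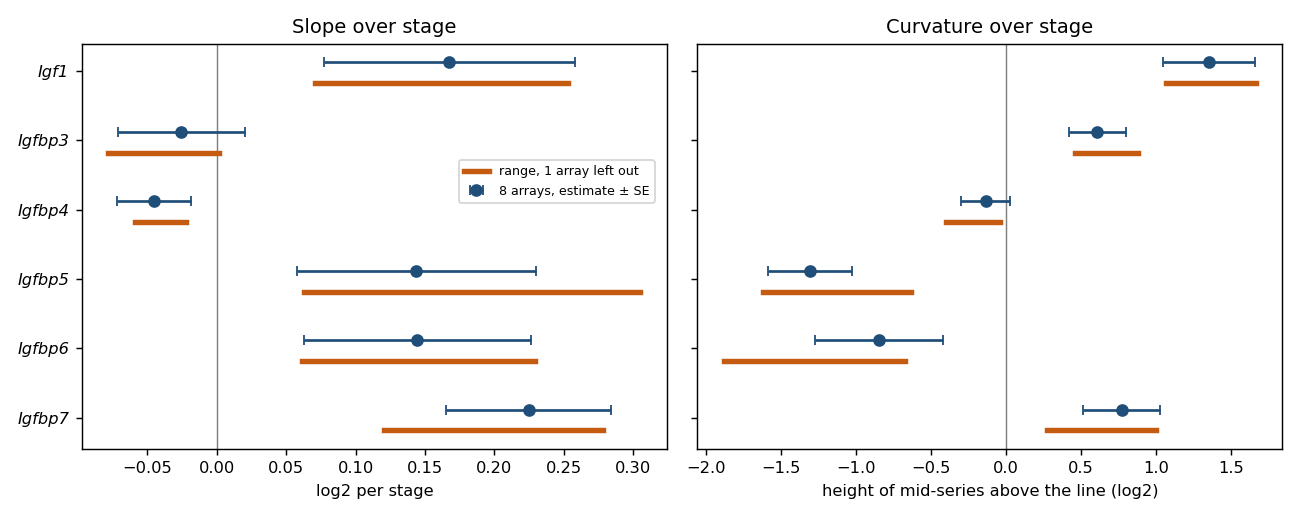
Slope over stage (left, log2 per stage) and curvature (right, log2 height of mid-series above the line) of the 6 tested members. Points are estimates from 8 arrays with their SE, and thick lines span the estimates with 1 array left out. The slope of Igfbp7 stayed at 0.12 or more, and the curvatures of Igf1 and Igfbp5 stayed on opposite sides of 0.

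The 2-fold steps of the 6 tested members all came early. Of their 42 steps between neighbouring stages 5 were 2-fold or more, and all 5 lay before or at e17.5. From e15.5 to e16.5 Igfbp6 and Igfbp7 went up and Igfbp5 went down. These were 3 of 6 members, where 4.69% of all tested features made a step of that size. Igfbp2 went below 7.5 over this step, so only the bound given above can be read. From e16.5 to e17.5 Igf1 went up and Igfbp6 down, where 2.82% of features made such a step. Muscle and epidermal marker means dropped over the first of these steps, from 13.02 to 9.16 and from 11.55 to 9.30, and their part in it was not tested. From e18.5 to P0, the step over birth, 0 of 6 members moved 2-fold, where 3.38% of features did. The count was also 0 of 6 from e17.5 to e18.5 (2.44% of features), from P0 to P2 (2.75%), from P2 to P5 (3.63%) and from P5 to P12 (2.05%).

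Set against each other, the 4 embryonic and the 4 postnatal arrays gave no call among the members. The 4 pools of a period are different stages and not replicates. Each SD below, and the spread that the period p-values rest on, therefore holds change with stage. The mean of Igf1 was 9.96 (SD 1.04, n = 4) in the embryonic and 10.43 (SD 0.32, n = 4) in the postnatal pools, Igfbp5 11.14 (SD 0.67) and 11.88 (SD 0.56), and Igfbp7 11.60 (SD 0.83) and 12.30 (SD 0.27). Differences of the 6 tested members, postnatal minus embryonic, ran from -0.23 for Igfbp3 to 0.74 for Igfbp5, with limma adjusted p-values of 0.205 to 0.501. Without the e15.5 array the difference of Igf1 was 0.12 (adjusted p = 0.864) and that of Igfbp7 0.31 (adjusted p = 0.375). Without the e18.5 array they were 0.89 (limma adjusted p = 0.0924) and 0.95 (adjusted p = 0.0907), and 1880 of all 7446 features passed. In the fit of all 8 arrays 0 of 6 members passed, also at an unadjusted p of 0.05, where 0.0134% of all features passed adjusted and 32.9% unadjusted. The embryonic and postnatal values overlapped for all 6, whereas 18.9% of all features had no overlap. With array weights the difference of Igfbp5 was 0.87 (limma adjusted p = 0.0473), a setting in which 1798 of all 7446 features passed.

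The other ligands, receptors and carriers of the system were set beside these genes. Of 10 on the array 4 were tested, of which 2 rose and 1 fell, where 18.3% of all features rose and 20.7% fell. Ghr, the growth hormone receptor, rose by 0.40 log2 per stage (SE 0.06, limma adjusted p = 0.00211), from 10.29 at e15.5 to 12.65 on P12, with its largest step between P0 (11.25) and P2 (12.70). Igfals, which encodes the acid-labile subunit that binds IGF1 and IGFBP3 in serum, rose by 0.28 (SE 0.07, adjusted p = 0.0171). It was below 7.5 at e15.5 and e16.5 (6.97 and 7.06) and between 8.26 and 9.14 from e17.5 on. Igf2r, the receptor that clears IGF2, fell by 0.35 per stage (SE 0.04, adjusted p = 0.00113). Igf2, the fetal ligand, was named here after its values were seen. It read 14.66 to 14.85 from e15.5 to P2, 13.90 on P5 and 10.21 on P12. The values up to P2 lay near the highest level on any array, so they cannot show whether Igf2 RNA was constant until then. The slope of Igf2, -0.44 (SE 0.17), did not pass (adjusted p = 0.0666). Igfbp1 and Insr, the insulin receptor, stayed below 7.5 on all arrays.

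Among genes of growth hormone signalling, which induces Igf1, 2 of 6 tested rose and 0 fell, beside 18.3% and 20.7% of all features. The list mixes activators and inhibitors, so the count does not give the direction of signalling. The slope of Bcl6, a transcriptional repressor, was 0.35 per stage (SE 0.08, adjusted p = 0.0129). That of Stat5a, a transcription factor activated by the growth hormone receptor, was 0.17 (SE 0.02, adjusted p = 0.00129). Socs2, a feedback inhibitor induced by that pathway and named here after its values were seen, had a course like that of Igf1. It stood at 8.27 in the first pool, 10.78 at e18.5 and 8.81 in the last, with a curvature of 1.64 that did not pass (adjusted p = 0.086). Jak2, Socs3 and Cish are likewise named after their values were seen. Jak2 and Socs3 were also highest at e18.5 (9.30 and 9.22), and Cish on P2 (10.45). Bcl6 (11.49) and Stat5a (9.08) were highest on P12.

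**Figure D4:**
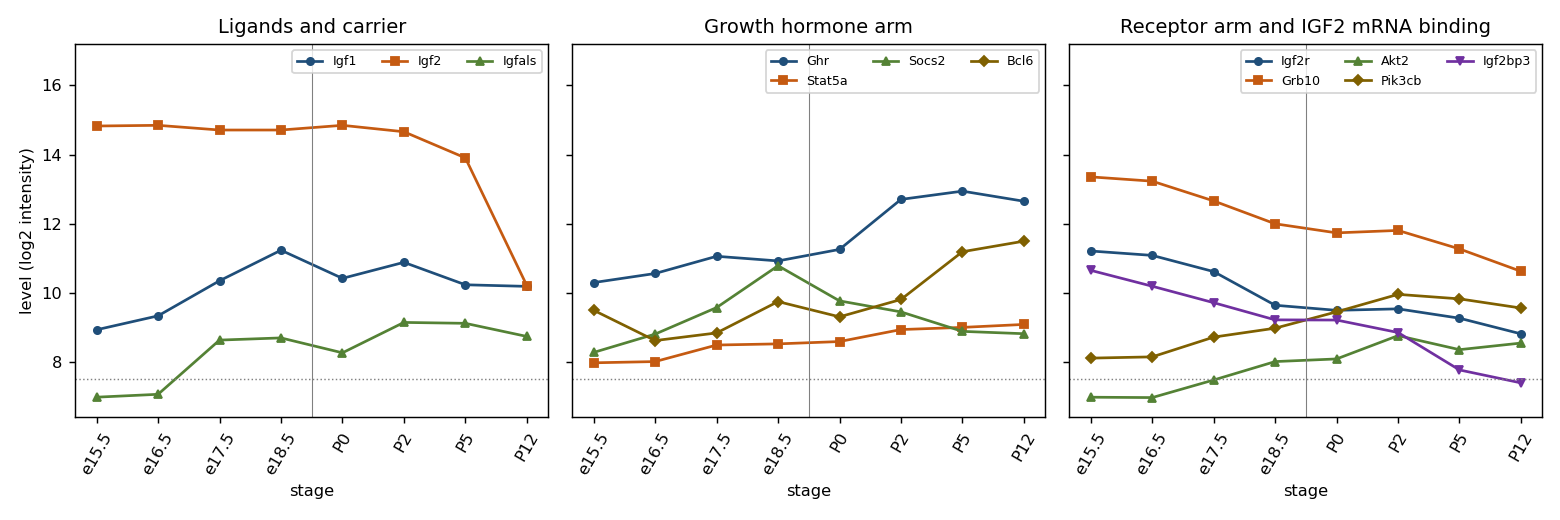
Levels (y, log2 intensity) by stage (x, 1 array per stage) of ligands and their carrier, of growth hormone pathway genes, and of receptor pathway genes. Igf1 and Socs2 were highest at e18.5, Ghr rose most between P0 and P2, and Igf2r, Grb10 and Igf2bp3 declined across the series. The dotted line is at 7.5.

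Below the receptor, 3 of 16 tested signalling genes rose and 1 fell, where 18.3% of all features rose and 20.7% fell. The rises were Pik3cb, a catalytic subunit of PI3 kinase (0.27 per stage, SE 0.04, adjusted p = 0.00299), Akt2, the kinase that carries insulin and IGF signals in fat (0.26, SE 0.04, adjusted p = 0.00258), and Eif4ebp1, a translation repressor controlled by mTOR (0.16, SE 0.05, adjusted p = 0.0331). Grb10, an adaptor that damps the IGF1 and insulin receptors, fell by 0.38 per stage (SE 0.03, adjusted p = 0.000354). The median slope of these 16 was 0.056, and 12 did not pass.

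Of 8 tested proteases and inhibitors that act on IGF-binding proteins, 1 rose and 1 fell. Htra1, a serine protease that cleaves IGFBP5, rose by 0.21 per stage (SE 0.06, adjusted p = 0.0267), from 9.01 at e15.5 to 10.25 at P12, and Timp1, a metalloproteinase inhibitor, fell by 0.19 (SE 0.06, adjusted p = 0.0438). Of 4 tested relatives that share the IGF-binding domain, Ccn4 fell by 0.32 (SE 0.04, adjusted p = 0.00211) and 3 did not pass. Both tested IGF2 mRNA-binding proteins fell, Igf2bp3 by 0.45 per stage (SE 0.04, adjusted p = 0.000354) and Igf2bp1 by 0.16 (SE 0.02, adjusted p = 0.00153). These counts stand beside 18.3% of all features that rose and 20.7% that fell. The 14 called slopes in these lists of other genes were refitted without the e15.5 and P0 arrays, on part of the same data. All 14 kept their sign and 11 also passed, where 2126 of all 7446 features passed, against 2905 with 8 arrays. The 3 that did not pass there were Igfals (0.23, adjusted p = 0.102), Timp1 (-0.23, adjusted p = 0.0718) and Eif4ebp1 (0.13, adjusted p = 0.168). In that setting 1 further gene passed, Adam12, a metalloproteinase that cleaves IGFBP3 and IGFBP5, named here after its values were seen (-0.17 per stage, adjusted p = 0.0133).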

How the data were processed

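Biotin-labelled RNA of 8 pools was read on 1 array per stage and extracted in BeadStudio, as the labels' protocols state. The authors deposited log2 intensities of 25697 probes, with the base inferred from their span of 6.66 to 15.10. Sorted values of the 8 columns were equal to within 0.005, which hides any change in total signal. How the authors normalized them and treated background is not given in the sources used here. Another deposited table was not used, since its 16 per-sample columns match no sample label, so detection values are missing here.

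Probes were named from the platform annotation: 23978 had 1 symbol, 0 several, and 1719 are unnamed here. The probe with the highest mean stood for a gene (18312 features). Features at 7.5 or more on at least 2 arrays were tested, 7446 in all, of which 6934 were named. Fits used limma 3.58.1 in R 4.3.3 (lmFit, eBayes), two-sided, at an adjusted p of 0.05. Residual degrees of freedom were 6 for slope and period and 5 for curvature. Members and lists were chosen with earlier results of these data known. All 8 members were named, other pathway genes by size of slope among those called (up to 3 each way per list), and like genes by the 3 highest Pearson r. Alternatives changed the filter, the variance moderation, the array weights, the probe choice, the marker covariates and the arrays used. The number of pools limits precision.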

Additional observations from a re-analysis of the deposited data

How the results depend on the processing

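No paired analysis was possible because each stage had 1 array and the labels give no replicate numbers. The members' slopes, period differences and curvatures, 18 values in all, were recomputed under 16 other settings, of which 15 were planned. Of the 288 values 277 kept their direction and their side of the threshold, 4 lost a call (the Igfbp7 slope, given above), 6 gained one (Igfbp5 and Igfbp6, given above) and 1 changed sign. The last was the slope of Igfbp3, which ran from -0.078 without the e15.5 array to 0.0019 log2 per stage without P12 (adjusted p = 0.984). The cause was not tested.

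The counts over all features moved more. In the trend test, 2905 features passed, 1776 with the muscle marker mean as a covariate, 1700 with the epidermal mean and 1890 to 3058 with 1 array left out, the lowest without P12. In the period test 1 passed, and 4 with no filter, 277 at 7.5 on all 8 arrays, 1798 with array weights, 228 with the muscle and 823 with the epidermal mean, 2 with every probe as a feature, 6 without e15.5 and P0, and 0 to 1880 with 1 array left out, the highest without e18.5. It was 12 without P0 and 0 with limma without any other array (1560 to 2255 at an unadjusted p of 0.05). In the curvature test 52 passed, 81 with the muscle and 106 with the epidermal mean, and 0 to 55 with 1 array left out. It gave 22 without P12, 2 without P0, and 0 with limma without e15.5, e16.5, e17.5, e18.5 or P2 (1193 to 1470 at an unadjusted p of 0.05). It also gave 0 under no filter (2491 at an unadjusted p of 0.05), array weights (1220) or without e15.5 and P0 (927). Igf1r and both Igfbp2 probes were too close to background for a fold below 7.5 to be read.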
